A study of Homo sapiens with 12 samples.

Results

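AP-1 is a family of transcription factors built from FOS and JUN proteins, and 9 of its genes were followed here through 12 RNA-seq libraries: FOS, FOSB, FOSL1, FOSL2, JUN, JUNB, JUND, BATF3 and ATF2. The members were taken by gene symbol, 1 row each, from a deposited table of 57500 genes, and all 9 had enough reads to be tested in both cell lines. The libraries came from HCC1806 and MDA-MB-468, established lines from triple-negative breast cancers, which lack estrogen receptor, progesterone receptor and HER2 amplification. Each line carried either a control guide RNA (sgC1 in HCC1806, sgNTA in MDA-MB-468) or sgPACT-2, a CRISPR-Cas9 guide against PRKRA, the gene of PACT, and each of these 4 groups had 3 libraries. No other treatment was labelled, a single guide was used for the depletion, and since each line had its own control guide, line and control guide cannot be told apart. PACT is a binding partner of double-stranded RNA and of the kinase PKR, and the series title concerns its suppression of PKR. The labels do not say whether replicates were separate cultures, so p-values measure the spread between these samples, which may be technical.

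FOS proteins cannot pair with each other and bind DNA only with a JUN partner, whereas JUN proteins also pair among themselves. The dimers bind the AP-1 site, and dimers of JUN with ATF2 prefer the related cAMP response element (CRE). FOS, FOSB, JUN and JUNB are immediate early genes, whose mRNAs rise within minutes of growth factors or stress, are short-lived, and answer to the MAP kinases ERK, JNK and p38. FOSL1, also called FRA1, is known as the FOS protein most tied to invasive, basal-like breast cancer cells.

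Promoters are shown for FOSB, JUN and JUNB. These 3 members passed the test in HCC1806 when libraries were compared within replicate numbers, as described further on. Each line gives 150 bases that end at the base before the RefSeq gene start (GRCh38.p14), read 5′ to 3′ on the strand of the gene, with the core TGACG of the CRE and the AP-1-like sequence TGACATCA in capitals. The JUN stretch lies at chr1:58784048-58784197 on the minus strand, that of JUNB at chr19:12791336-12791485 on the plus strand and that of FOSB at chr19:45467846-45467995 on the plus strand.
JUN: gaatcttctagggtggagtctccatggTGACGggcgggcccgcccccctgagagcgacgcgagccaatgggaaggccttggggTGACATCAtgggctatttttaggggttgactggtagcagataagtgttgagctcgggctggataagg
JUNB: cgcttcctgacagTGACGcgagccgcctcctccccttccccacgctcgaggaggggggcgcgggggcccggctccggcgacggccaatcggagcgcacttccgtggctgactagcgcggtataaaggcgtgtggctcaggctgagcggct
FOSB: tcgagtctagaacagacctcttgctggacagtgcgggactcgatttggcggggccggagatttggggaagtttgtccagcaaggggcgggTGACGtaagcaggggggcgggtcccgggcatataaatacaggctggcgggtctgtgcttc

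The core TGACG stood in all 3 of these stretches, and in JUN the sequence TGACATCA lay at -67 to -60 from the gene start, a sequence known as the AP-1-like site of the JUN promoter. Over windows from 250 bases before to 50 after the start, searched on both strands, TGACG occurred in all 6 members with a RefSeq promoter at hand (FOS, FOSB, FOSL2, JUN, JUNB and JUND), against 24.6% of 35116 promoters. TGACATCA occurred in JUN and in 2.61% of promoters. The full CRE TGACGTCA, which contains the core, occurred in JUND at -200 to -193 and in 1.85% of promoters. The AP-1 site TGANTCA occurred in FOSL2, at bases 5 to 11 after the start, and in 7.71% of promoters. The TATA box TATAAA occurred in FOS, FOSB and JUNB and in 11.5% of promoters. The serum response element's CArG box and the kappaB site, searched by name, had 0 matches in the 6 windows and occurred in 1.29% and 11.3% of promoters. Bases further than 250 before the start were not searched, so 0 matches here do not show that a gene lacks either element. A match is a description of letters in this window, not a bound site. FOSL1, BATF3 and ATF2 had no entry in the promoter table. GENCODE 29 places the starts of JUN, FOSL2 and FOS further upstream than RefSeq does, and the positions given here count from the RefSeq start.

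Reads were counted per gene and are given as CPM, which divides them by library size, after TMM scaling for library composition. The HCC1806 libraries held between 18640633 and 24704877 counts, those of MDA-MB-468 between 34581754 and 44790741. PRKRA checked the labels: its level was 77.7 ± 5.3 CPM (SD, n = 3) with sgC1 and 36.9 ± 0.773 with sgPACT-2 in HCC1806, different by -1.07 on the log2 scale (SE 0.11, adjusted p = 0.00321). In MDA-MB-468 it was 44.6 ± 3.11 and 38.7 ± 3.08 CPM, a log2 fold change of -0.20 that did not pass the test (SE 0.09, adjusted p = 0.407). A guide that cuts DNA need not lower the mRNA, so this checks the protein in neither line. Of the markers of the triple-negative label, PGR was low, at most 0.3 CPM in any library, while epithelial EPCAM and KRT8 were abundant. ESR1 read 20.9 ± 1.81 CPM in HCC1806 controls and 6.66 ± 0.409 in MDA-MB-468 controls. ERBB2, the gene of HER2, was not low, at 194 ± 14.2 CPM in HCC1806 controls and 140 ± 5.03 in MDA-MB-468 controls. Its amplification was not tested. The T cell gene CD3E was at 0 in 11 of 12 libraries and the leukocyte gene PTPRC at no more than 0.584 CPM. Of the other markers of non-epithelial cells, the collagen gene COL1A1 was expressed, with 33.4 ± 6.43 and 44.4 ± 6.1 CPM in HCC1806 control and depleted libraries and 19.7 ± 1.54 and 18.3 ± 2.25 in those of MDA-MB-468. CD68 reached at most 3.87 CPM, PECAM1 1.89 and COL3A1 0.8. Among HCC1806 libraries, replicate 1 with sgPACT-2 stood apart. Its counts differed most from those of its group, with a chi-square per degree of freedom of 27.8 and 46.1 against replicates 2 and 3, which differed by 14.5. It had the fewest reads and the lowest mitochondrial share, 11.6% against 12.4% to 15.0% in the other HCC1806 libraries. Control replicate 1 also differed most from its group, to a lesser degree, with 20.9 and 19.6 against replicates 2 and 3, which differed by 11.2.

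The control cells of the lines carried different AP-1 repertoires. HCC1806 held far more FOSL1, a little more FOSL2, and MDA-MB-468 far more JUND, with more JUN, ATF2 and FOSB, while the JUNB estimate lay close to 0. Of the 9 members, 4 were higher in MDA-MB-468 and 2 lower at an adjusted p-value under 0.05. These lines differ at most genes, so such counts say little: 34.4% of the 27177 genes tested were higher in MDA-MB-468 and 39.5% lower.

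FOSL1 read 132, 37.4 and 90.8 CPM in the HCC1806 controls and 10.2, 9.78 and 7.83 in those of MDA-MB-468. Every HCC1806 control was above every MDA-MB-468 control, and the log2 difference (MDA-MB-468 minus HCC1806) was -3.23 (SE 0.49, adjusted p = 1.27e-05). JUND, the JUN protein that is made at steady levels and least dependent on stimuli, read 18, 17.7 and 17.7 CPM against 116, 97.8 and 99.8. Its groups were far apart with little spread, and its log2 difference was 2.56 (SE 0.12, adjusted p = 2.87e-12).

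JUN, the founding member and main substrate of JNK, read 33.1, 19.1 and 30.04 CPM in HCC1806 controls and 78.1, 61.4 and 65.8 in MDA-MB-468 controls, a log2 difference of 1.32 (SE 0.28, adjusted p = 3.77e-04) with no overlap. ATF2, a CRE-binding partner of JUN that JNK and p38 activate, read 38.7, 38.5 and 38.9 CPM against 72.3, 66.2 and 71.8. These groups did not overlap either, and the log2 difference was 0.86 (SE 0.10, adjusted p = 3.6e-07). FOSL2, or FRA2, was the reverse in direction and small in size, at -0.44 (SE 0.10, adjusted p = 7.35e-04), with 243 to 275 CPM in HCC1806 controls and 182 to 204 in MDA-MB-468 controls.

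FOSB was higher in MDA-MB-468 controls by 0.61 on the log2 scale (SE 0.25, adjusted p = 0.0343), with levels of 2.55 to 4.12 CPM in the HCC1806 controls and 4.94 to 5.96 in the others. That call was lost without scaling beyond library size (adjusted p = 0.178), without replicate 2 of the HCC1806 controls (0.136) and without replicate 1 or 2 of the MDA-MB-468 controls (0.069 and 0.0897). JUNB differed by -0.05 (95% interval -0.42 to 0.31, adjusted p = 0.785), FOS by 0.33 (-0.87 to 1.53, adjusted p = 0.614) and BATF3 by 0.35 (-0.56 to 1.26, adjusted p = 0.47), intervals that still allow differences of some size for FOS and BATF3. The median over all genes tested was -0.24 under this scaling and -0.51 with library size only, and the directions of the 6 members called held under both.

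Divided by exon length, levels can be compared between genes. In HCC1806 controls JUNB led with 57.2 ± 13.7 CPM per kb (SD, n = 3), followed by FOSL1 with 45.9 ± 25.1 and FOSL2 with 36.6 ± 2.37; the ranges of JUNB and FOSL1, and of FOSL1 and FOSL2, overlapped. JUND (9.55 ± 0.1), JUN (7.74 ± 2.08) and ATF2 (6.73 ± 0.0347) came next, with JUN overlapping ATF2 and staying just below JUND. FOS was at 2.25 ± 2.03, FOSB at 0.647 ± 0.163 and BATF3 at 0.248 ± 0.0672, with FOS overlapping FOSB. In MDA-MB-468 controls JUND (56.2 ± 5.51) and JUNB (55.0 ± 3.69) led together, then FOSL2 (27.0 ± 1.56), JUN (19.3 ± 2.44), ATF2 (12.2 ± 0.587), FOSL1 (4.91 ± 0.669), FOS (2.83 ± 0.651), FOSB (0.988 ± 0.0926) and BATF3 (0.315 ± 0.165), and of these neighbours only JUND and JUNB overlapped.

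As a share of the CPM per kb summed over the 7 FOS and JUN genes, FOSL1 made up 27.5% ± 11.9 (SD, n = 3) in HCC1806 controls and 2.96% ± 0.368 in MDA-MB-468 controls. JUND made up 6.13% ± 1.26 and 33.8% ± 0.482, and JUNB about the same in both, 36.2% ± 8.15 and 33.1% ± 0.55. The 4 FOS genes together held 34.8% to 62.6% of this sum in the 6 HCC1806 libraries and 21.1% to 25.4% in the 6 of MDA-MB-468, so no library of one line reached the range of the other. RNA shares say nothing of protein, and these carry the same limit of exon length.

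**Figure D1:**
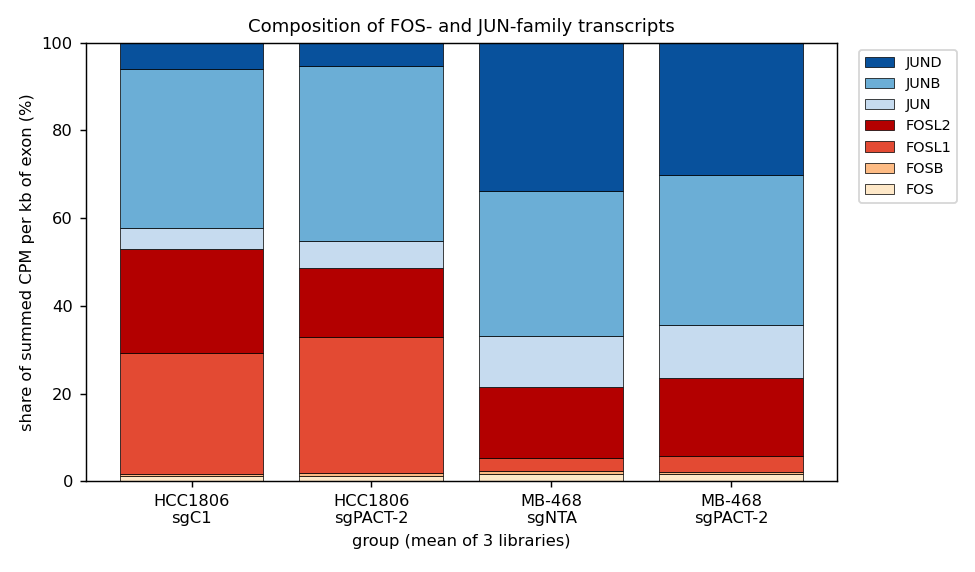
Share of each FOS and JUN gene in the CPM per kb of exon summed over the 7 genes (vertical axis, %), as the mean of 3 libraries in each of the 4 groups (horizontal axis). In the control groups FOSL1 is 27.5% in HCC1806 and 2.96% in MDA-MB-468, and JUND 6.13% and 33.8%.

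The comparison of sgPACT-2 with the control guide asks what loss of PACT did to each line. In HCC1806, JUN, JUNB and FOSB were each higher in the depleted library than in the control of the same number, in all 3 pairs. JUND and BATF3 were so too, BATF3 on 11 to 33 counts a library. FOSL1 and FOS were so in 2 of 3, and ATF2 was lower in all 3. The share of all genes with 3 ratios of 1 sign was not counted, so these signs are only a description. Compared as independent groups, no member passed the test: 0 of 9 were called, with 70 of 23470 genes called in all (0.298%). An unadjusted p-value under 0.05 was reached by 4 of 9 and by 11.4% of all genes tested. DESeq2 and limma voom called 0, but edgeR with no filter on low counts called 4 (FOSB, FOSL1, JUN and JUNB), all upward, where 0.848% of genes rose. Compared within replicate numbers, JUN, JUNB and FOSB rose: 3 of 9, where 1.36% of genes tested rose. Same-numbered control and depleted libraries of HCC1806 deviated from their group means in the same direction across genes, with correlations of 0.479, 0.294 and 0.152. Control 2 and depleted 3 went together more closely (0.351) than either did with its own number. The data thus do not settle the pairing, and the calls with the block rest on the replicate numbers of the labels. In the same blocked fit the epithelial markers KRT5 and EPCAM fell (log2 fold changes of -0.93 and -0.55), KRT17 rose by 0.51, and 0 of 2 tested markers of other cell types passed (COL1A1 at 0.42, adjusted p = 0.0669). The 6 markers of other cell types summed to 32.5 to 43.4 CPM in control libraries and to 41.5 to 51 in depleted ones. Most of that sum was COL1A1, with means of 33.4 and 44.4 CPM. CD68, PTPRC and PECAM1 had lower means in depleted libraries, and COL3A1 a higher one. The part of this shift in the AP-1 values was not tested.

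JUN read 33.1, 19.1 and 30.04 CPM in HCC1806 controls and 87.2, 29.3 and 42.8 in depleted replicates 1 to 3. The groups overlapped, because depleted replicate 2 lay below the highest control, and depleted replicate 1 was high on its own. The log2 fold change was 0.95 (SE 0.34, 95% interval 0.19 to 1.71, adjusted p = 0.332), and 0.40 (adjusted p = 0.391) without depleted replicate 1. Within pairs the log2 ratios were 1.40, 0.62 and 0.51, and the fit with the replicate number as a block gave 0.85 (SE 0.16, adjusted p = 0.0103). Without the pair that holds depleted replicate 1, the blocked value was 0.56 (adjusted p = 0.0121), and it was 0.96 and 1.03 (adjusted p = 3.81e-04 and 3.09e-11) without pair 2 or 3. With a pair left out, few libraries remain and the p-values lean on the spread of other genes, so they are a weak check.

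JUNB, which can restrain JUN and is itself a strong partner of FOS proteins, read 86.0, 93.4 and 133 CPM in controls and 148, 121 and 207 in depleted libraries. Depleted replicate 2 lay below control replicate 3, so these groups overlapped too, and replicate 3 was the highest of both. The log2 fold change was 0.61 (SE 0.21, 95% interval 0.14 to 1.08, adjusted p = 0.315), and 0.60 with the block (SE 0.11, adjusted p = 0.0112). Without pairs 1, 2 and 3 in turn, the blocked value was 0.50, 0.71 and 0.58 (adjusted p = 0.0172, 0.0177 and 1.04e-05). These p-values have the limit given for JUN.

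FOSB, a FOS protein with a splice form that persists under chronic stimulation in neurons, read 4.12, 2.55 and 4.11 CPM in controls and 8.91, 4.59 and 6.74 in depleted libraries. All depleted libraries were above all controls, on 57 to 202 counts a library. The log2 fold change was 0.90 (SE 0.29, 95% interval 0.27 to 1.54, adjusted p = 0.257), and 0.89 with the block (SE 0.21, adjusted p = 0.0327). The blocked call was lost without pair 1 (0.77, adjusted p = 0.107) or pair 2 (0.91, adjusted p = 0.109).

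FOSL1 varied widely between replicates, with 132, 37.4 and 90.8 CPM in controls and 297, 86.9 and 61.9 in depleted libraries. Pairs 1 and 2 had log2 ratios of 1.17 and 1.22 and pair 3 had -0.55, so the libraries did not move one way. The highest control was 3.52 times the lowest, where the median gene of HCC1806 had a ratio of 1.26 and the 99th percentile was 2.70. The log2 fold change was 0.78 (SE 0.55, 95% interval -0.44 to 1.99, adjusted p = 0.662) and turned to -0.22 (adjusted p = 0.822) without depleted replicate 1.

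FOS, the best known immediate early gene, behaved in the same way on a lower level, with 6.12, 1.39 and 14.3 CPM in controls and 17.9, 2.51 and 11.6 in depleted libraries. The groups overlapped over most of their range, and replicate 2 was the lowest of both. FOS had the widest spread of the 9 members in HCC1806: its highest control was 10.4 times the lowest. The log2 fold change was 0.54 (SE 0.72, 95% interval -1.04 to 2.13, adjusted p = 0.844), and -0.03 (adjusted p = 0.99) without depleted replicate 1. With the block, FOS and FOSL1 passed only when pair 3 was left out (1.31 and 1.19, adjusted p = 3.22e-05 and 4.51e-19). That was the pair in which both were lower in the depleted library, at log2 ratios of -0.31 and -0.55.

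**Figure D2:**
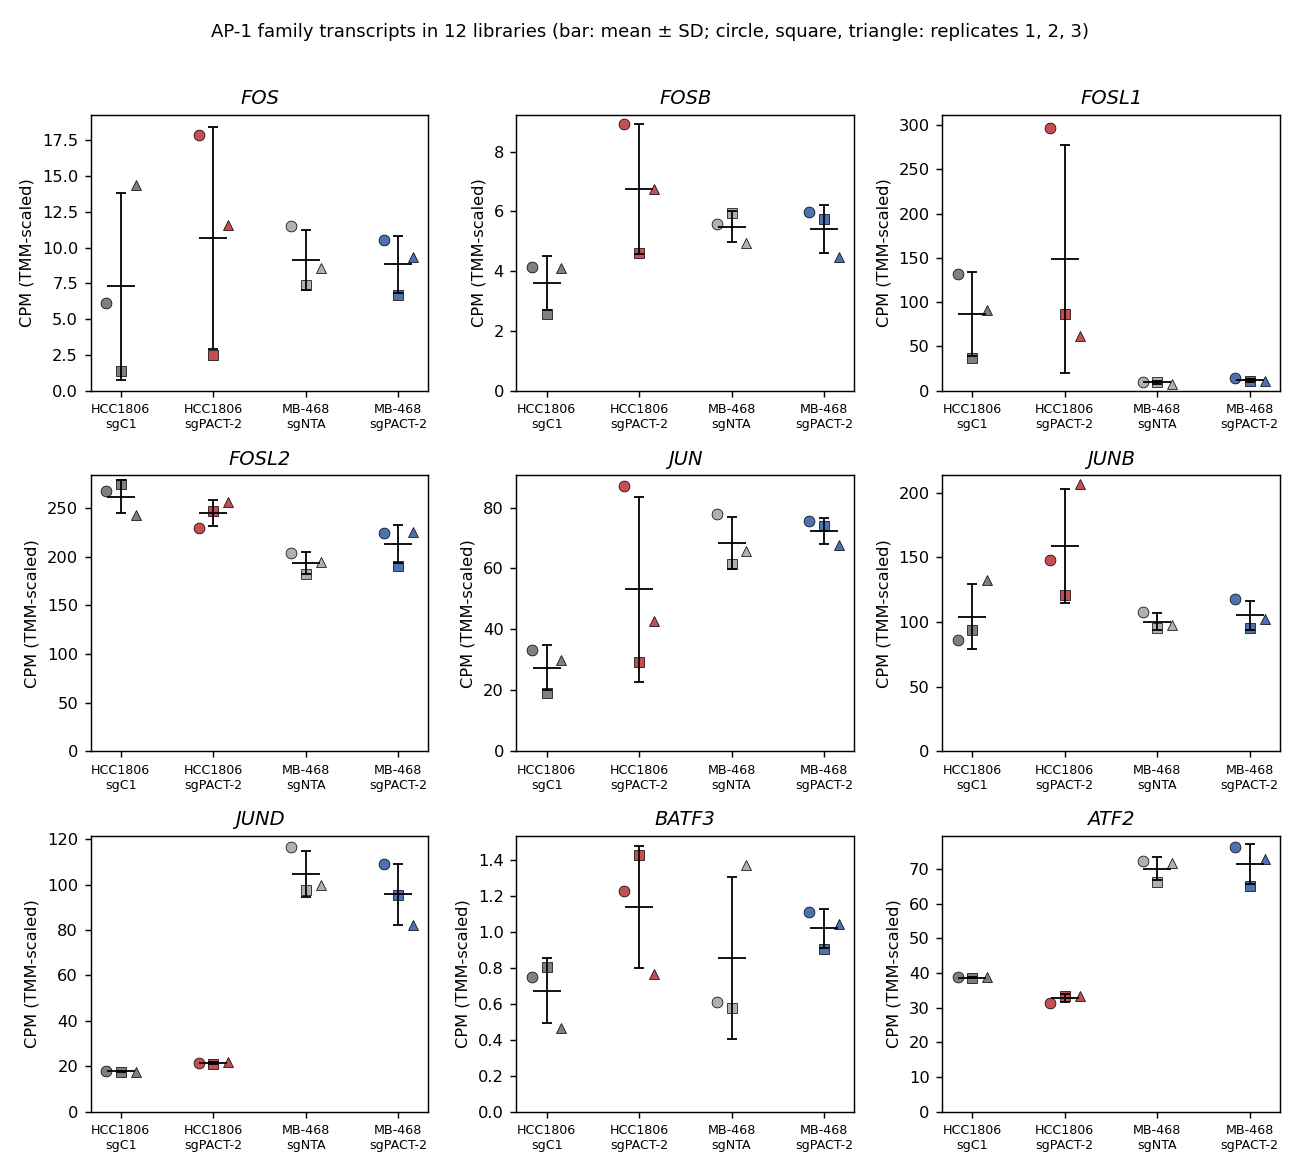
TMM-scaled CPM (vertical axis, from 0, own scale per gene) of the 9 members in the 4 groups (horizontal axis; MB-468 stands for MDA-MB-468), with symbols for replicates 1 to 3 and bars for the mean ± SD of 3 libraries. In HCC1806, JUN, FOSL1, FOS and FOSB have their highest library in depleted replicate 1, JUND and ATF2 vary little, and in MDA-MB-468 the 2 groups lie close together.

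JUND and ATF2 shifted by little, but evenly. JUND read 18, 17.7 and 17.7 CPM in HCC1806 controls and 21.6, 21.0 and 22.0 in depleted libraries, so every depleted library lay above every control. Its log2 fold change was 0.28 (SE 0.12, 95% interval 0.00 to 0.55, adjusted p = 0.431). ATF2 read 38.7, 38.5 and 38.9 CPM in controls and 31.3, 33.2 and 33.4 in depleted libraries, all below the controls, with a log2 fold change of -0.24 (SE 0.11, 95% interval -0.49 to 0.01, adjusted p = 0.453). ATF2 and PRKRA both lie on chromosome 2 between 170 and 200 Mb, a stretch whose 109 tested genes had a median log2 fold change of -0.31 in HCC1806, with 78.9% negative, against -0.02 on other chromosomes. The part of this stretch in the ATF2 value was not tested. In MDA-MB-468 the median of its 91 tested genes was 0.05.

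FOSL2 read 268, 275 and 243 CPM in HCC1806 controls and 230.1, 247 and 257 in depleted libraries, which overlapped. Its log2 fold change was -0.10 (SE 0.12, 95% interval -0.36 to 0.16, adjusted p = 0.825), an interval that excludes a change of the size seen for JUN; it was 0.03 with library size only, a scaling that moved the median of all genes from 0.00 to 0.12. BATF3, a partner of JUN best known from dendritic cells, had 11 to 55 counts in any library. Its levels in HCC1806 were 0.750, 0.805 and 0.466 CPM in controls and 1.22, 1.43 and 0.767 in depleted libraries, with a log2 fold change of 0.75 (SE 0.43, 95% interval -0.20 to 1.69, adjusted p = 0.563), not detectable at this depth.

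**Figure D3:**
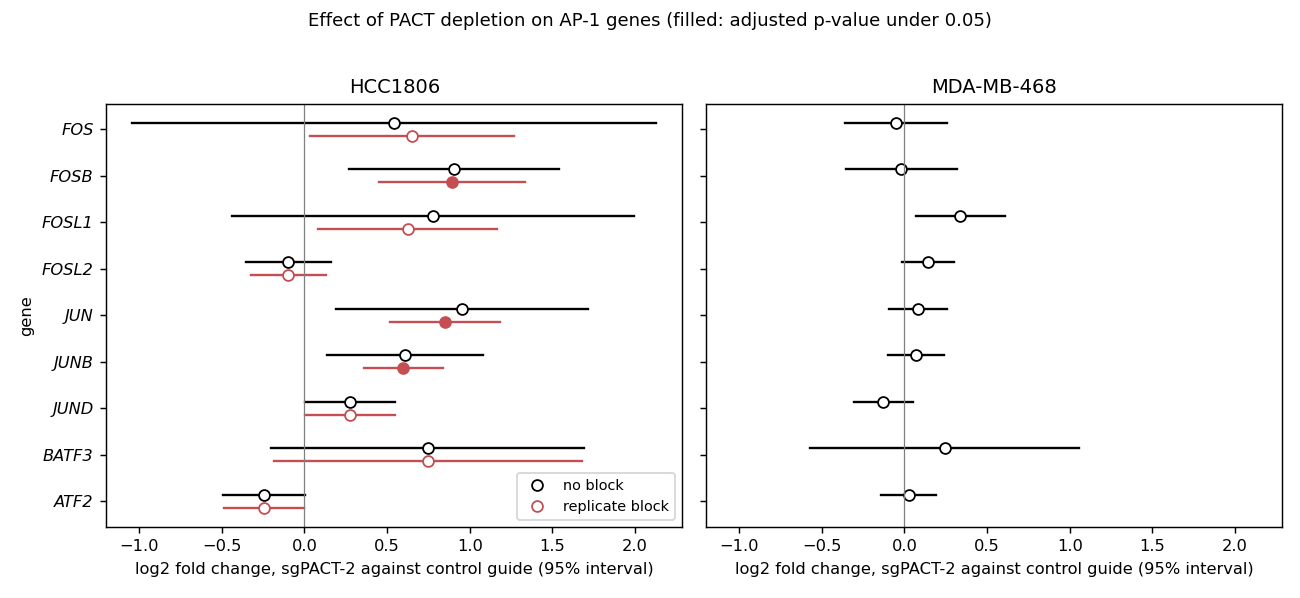
Log2 fold change of sgPACT-2 against the control guide (horizontal axis) for each member (vertical axis) with its 95% interval, in HCC1806 without (black) and with (red) the replicate number as a block, and in MDA-MB-468 without it; filled points have an adjusted p-value under 0.05. The block narrows the HCC1806 intervals of JUN, JUNB and FOSB, which are the filled points, and the MDA-MB-468 values lie near 0.

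In MDA-MB-468 the log2 fold changes of the immediate early members FOS, FOSB, JUN and JUNB lay between -0.05 and 0.08. Of the 9 members 0 passed the edgeR test, on a background of 277 of 21404 genes called (1.29%); 1, FOSL1, had an unadjusted p-value under 0.05, as had 9.95% of all genes, and DESeq2 and limma voom called 0. JUN read 78.1, 61.4 and 65.8 CPM in controls and 75.5, 74.0 and 67.6 in depleted libraries, which overlapped, and its log2 fold change was 0.08 (SE 0.09, 95% interval -0.09 to 0.26, adjusted p = 0.839). JUNB read 108, 95.1 and 97.5 CPM against 118, 95.5 and 102, also overlapping, with 0.07 (SE 0.08, 95% interval -0.10 to 0.24, adjusted p = 0.859). Those intervals leave out changes as large as the HCC1806 values of 0.95 and 0.61. FOSB read 5.57, 5.96 and 4.94 CPM against 5.98, 5.74 and 4.49, with -0.02 (95% interval -0.35 to 0.32, adjusted p = 0.988).

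FOSL1 was the member with the largest shift in MDA-MB-468, on its low level there: 10.2, 9.78 and 7.83 CPM in controls and 13.8, 10.8 and 10.4 in depleted libraries. Each depleted library was above each control, if narrowly, and the log2 fold change was 0.34 (SE 0.13, 95% interval 0.07 to 0.61, adjusted p = 0.311). FOSL2 had 0.14 (SE 0.08, adjusted p = 0.588) and BATF3 0.24 (SE 0.40, adjusted p = 0.904). FOS had -0.05 (SE 0.15, adjusted p = 0.954), ATF2 0.03 (SE 0.08, adjusted p = 0.955) and JUND -0.13 (SE 0.09, adjusted p = 0.696), and JUND was lower in all 3 depleted libraries than in the same-numbered controls, by log2 ratios of -0.09, -0.03 and -0.28.

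**Figure D4:**
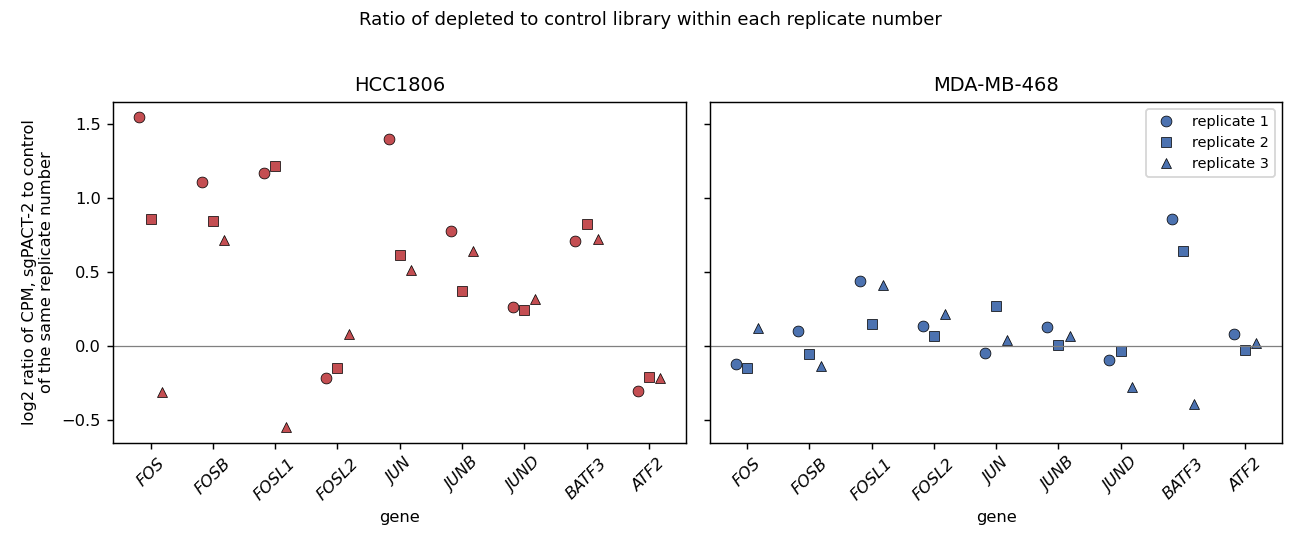
Log2 ratio of the CPM of the depleted library to that of the control library with the same replicate number (vertical axis), for the 9 members (horizontal axis) in each line; symbols mark replicates 1 to 3, and the grey line marks no difference. In HCC1806 all 3 points of FOSB, JUN, JUNB, JUND and BATF3 lie above 0 and all 3 of ATF2 below, while in MDA-MB-468 most points lie near the line.

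Whether the effects differed between the lines was tested directly (MDA-MB-468 minus HCC1806), and 0 of 9 members passed in edgeR, with 33 of 27177 genes called (0.121%). An unadjusted p-value under 0.05 was reached by 4 of 9 and by 8.36% of all genes. DESeq2 and limma voom called 0, and edgeR with no filter called JUN (adjusted p = 8.21e-04), where 0.374% of genes had a smaller change in MDA-MB-468. The estimates were -0.87 for JUN (95% interval -1.68 to -0.06, adjusted p = 0.562), -0.92 for FOSB (-1.65 to -0.20, adjusted p = 0.443) and -0.54 for JUNB (-1.06 to -0.02, adjusted p = 0.571). The JUND ratios were positive in all 3 pairs of HCC1806 and negative in all 3 of MDA-MB-468, where the groups overlapped. JUND passed the test in neither line, nor did its difference of -0.41 (-0.74 to -0.07, adjusted p = 0.487). With the replicate block 1 of 9 members, JUNB, had a smaller change in MDA-MB-468, at -0.53 (adjusted p = 0.0482), and 0.471% of genes tested were called in that direction; same-numbered libraries of MDA-MB-468 were not all tied by the measure used, with correlations of 0.116, 0.0751 and 0.106.

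Over the 9 members the median log2 fold change was 0.61 in HCC1806, against 0.00 for all genes tested, and 0.07 in MDA-MB-468, against -0.02. Positive values were held by 7 members in HCC1806, where 50% of all genes were positive, and by 6 in MDA-MB-468, where 45.4% were. In these fits without a block 0 of 9 members passed. The HCC1806 values of JUN, FOSL1 and FOS were smaller or negative without depleted replicate 1, as given above. The members did not vary together as 1 block. Across the 12 libraries, with each line's mean taken out, Pearson's r of log2 CPM was 0.919 for JUN with FOSB, 0.836 for JUN with FOSL1 and 0.768 for JUN with FOS, but 0.553 for JUN with JUNB, 0.148 for FOSL1 with JUNB and -0.382 for JUN with FOSL2. These values describe 12 points that share depth, scaling and the HCC1806 libraries of replicate 1, which differed most from their groups. By the same measure over 15918 genes, the genes most like JUN were MIR22HG (0.979), the host transcript of miR-22, TSC22D2 (0.968) and EDN1, the gene of endothelin-1 (0.961). Those most like FOSL1 were BANP (0.971), TRIO (0.967) and NPLOC4 (0.967).

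Among the other dimer partners, 1 gene rose in both lines. ATF3, a stress-induced CRE-binding protein that pairs with JUN proteins, read 6.12, 8.27 and 8.29 CPM in HCC1806 controls and 49.6, 40.4 and 43.2 in depleted libraries, far apart. It rose there by 2.55 (SE 0.16, adjusted p = 1.4e-04) on the log2 scale. In MDA-MB-468 it read 29.3, 29.2 and 29.9 against 99.98, 76.3 and 97 and rose by 1.63 (SE 0.09, adjusted p = 3.04e-17). It was the one of 5 tested partners called in HCC1806 (0.298% of all genes) and the one of 6 in MDA-MB-468 (1.29% of all genes). CREB5, a CRE-binding relative of ATF2, read 3.96, 2.10 and 3.22 CPM in HCC1806 controls and 14.2, 7.79 and 8.37 in depleted libraries without overlap, and missed the threshold at 1.70 (SE 0.30, adjusted p = 0.0517), which it passed with the block (SE 0.20, adjusted p = 4.56e-04).

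The genes that drive or destroy AP-1 gave no calls. Few genes did in edgeR: 0.298% of all genes tested in HCC1806 and 1.29% in MDA-MB-468. An unadjusted edgeR p-value under 0.05 was reached by 11.4% and 9.95% of all genes. At such shares, the lack of calls in short lists says little. Among 19 genes of the MAP kinase cascades, which phosphorylate JUN, ATF2 and the factors that switch on FOS, 0 passed edgeR in either line (1 and 0 at an unadjusted p-value under 0.05), with medians of 0.01 in HCC1806 and -0.02 in MDA-MB-468. Of 9 genes of serum response factor, its partners and CREB1, which bind the promoters of immediate early genes, 0 passed (1 and 1 unadjusted), with medians of 0.04 and 0.02. Of 7 ubiquitin ligase and turnover genes 0 passed (1 and 0 unadjusted), with medians of 0.06 and 0.03. With the block in HCC1806, 0 of these 35 genes passed, where 1.36% of all genes tested rose and 1.90% fell.

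Nor did a set of 24 known AP-1 targets follow one direction. In HCC1806, 0 of 24 passed edgeR (0.298% of all genes), 9 of 24 reached an unadjusted p-value under 0.05 (11.4% of all genes), 11 were positive and the median was -0.09; in MDA-MB-468, 1 of the 18 tested passed (1.29% of all genes), 5 of 18 did so unadjusted (9.95%), and the median was 0.04. That gene was HBEGF, a growth factor of the EGF family, which read 8.24, 7.41 and 9.35 CPM in controls and 12.0, 10.0 and 13.5 in depleted libraries, all above the controls, and rose by 0.50 on the log2 scale (SE 0.13, adjusted p = 0.0431). With the block in HCC1806, 2 targets rose (1.36% of all genes), VEGFA, an angiogenic factor, by 0.68 (SE 0.16, adjusted p = 0.0334) and the matrix protease MMP9 by 1.94 on 5 to 42 counts (SE 0.44, adjusted p = 0.0294). In that fit 2 fell (1.90% of all genes): the matrix protein gene SPP1 at -1.08 on the log2 scale (SE 0.13, adjusted p = 6.13e-04) and ANXA1 with -0.43 (SE 0.10, adjusted p = 0.0343). Between the control groups, 14 of 24 targets were lower in MDA-MB-468 (39.5% of all genes) and 3 higher (34.4%), with a median of -1.11 against -0.24 for all genes.

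The members lie apart in the genome, per GENCODE 29 on GRCh38. FOS is at chr14:75278774-75282230 and FOSL1 (minus strand) at chr11:65892049-65900573. JUNB (chr19:12791496-12793315), JUND (minus strand, chr19:18279760-18281622) and FOSB (chr19:45467995-45475179) share chromosome 19. JUN (minus strand, chr1:58780788-58784327) and BATF3 (minus strand, chr1:212686418-212699985) are on chromosome 1, and FOSL2 (chr2:28392448-28417312) and ATF2 (minus strand, chr2:175072250-175168382) on chromosome 2. JUN, JUNB and JUND have no introns. JUNB shares 259 exonic bases with HOOK2 on the other strand and ATF2 shares 246 with the antisense gene AC096649.1; the strand setting of the counting is not given in the sources used here, so reads in those bases are uncertain.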

How the data were processed

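Total RNA of 12 libraries, DNase treated and depleted of rRNA, was sequenced. The values the authors deposited are raw, unnormalized read counts for each Ensembl gene and library. Per the submitters' processing notes, Trimmomatic 0.36, STAR 2.5.2b, featureCounts and Subread 1.5.2 were used with GRCh38; the annotation release and strand setting are not given in the sources used here. GENCODE 29 gave positions and exon lengths and matched 56898 of 57500 genes; genes without a name held 0.0284% of counts.

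Tests used edgeR 4.0.16 in R 4.3.3 (filterByExpr, TMM over all 12 libraries, glmQLFit and glmQLFTest, two-sided). Each line was fitted alone for the guide effect, because the spread between replicates was larger in HCC1806 (coefficient of variation 0.205) than in MDA-MB-468 (0.0978). The difference of effects and the comparison of controls came from 1 model of 12 libraries with a shared spread (0.171). That value is below the spread of HCC1806 and above that of MDA-MB-468, which limits the intervals and p-values of both comparisons. Benjamini-Hochberg adjustment covered every gene tested, and an adjusted p-value under 0.05 was a call. Correlations used log2 CPM with a prior count of 2. The scripts were tested on simulated data. Alternatives were DESeq2 1.42.0, limma 3.58.1 voom with weights, RLE or no scaling, no filter, a mean of at least 50 counts, 1 model for all libraries, a replicate block, and each library left out. The block with single pairs left out, and the block in 1 model, were added after seeing the data. With a pair left out, little of a gene's own spread is left to measure, so those p-values and counts lean on other genes. Blocked values in HCC1806 are printed because every same-numbered pair deviated together (correlation over 0.1); pairing comes from that check and the labels' numbers, not from stated culture pairs. Control and depleted replicates differed by 7.35 to 46.1 chi-square units per degree of freedom, so none was a duplicate.

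The 9 members, the lists and the naming rule were chosen with earlier results of these data known. The rule named all members, called genes of each list (up to 4 per list and line), and the 3 genes most like JUN and FOSL1 among those with a mean of at least 50 counts. CREB5, VEGFA, MMP9, SPP1 and ANXA1 were named after their values were seen.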

Additional observations from a re-analysis of the deposited data

How the results depend on the processing

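Without a block, 70 genes passed in HCC1806; the count was 118 with library size only, 627 with no filter, 41 at a mean of 50 counts, 346 with DESeq2, 401 with limma voom, 671 in 1 model, 767 with the replicate block, 1943 with both, 1058, 364 and 2254 with the block and pair 1, 2 or 3 left out, and 17 to 462 without single libraries, 462 being without depleted replicate 1. Members called there were 0, but 4 with no filter (FOSB, FOSL1, JUN and JUNB), 3 with the block, 3 with the block in 1 model, and 2, 2 and 5 with the block and pair 1, 2 or 3 left out. At an unadjusted threshold of 0.05, 2668 genes passed in HCC1806 and 2130 in MDA-MB-468.

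In MDA-MB-468, 277 genes passed: 442 with DESeq2, 125 with limma voom, 844 with the replicate block, 46 in 1 model, 102 in 1 model with the block and 154 to 283 without single libraries, with 0 members in each of these settings. For the difference of effects the 33 became 279 with no filter (1 member, JUN), 179 with DESeq2, 13 with limma voom, 273 with the block (1 member, JUNB) and 9 to 172 without single libraries. Between controls, 13143 passed at a mean of 50 counts. FOS, not called there, passed with the block (0.78, adjusted p = 0.00877).

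Some directions turned, all of them for values that did not pass the test. FOSL2 in HCC1806 and FOSB in MDA-MB-468 became 0.0271 and 0.0301 with library size only. Without single libraries, FOS ranged from -0.0324 to 1.497 and FOSL1 from -0.22 to 1.21 in HCC1806. FOS from -0.20 to 0.15, JUNB from -0.0224 to 0.135, ATF2 from -0.0288 to 0.0899 and FOSB from -0.10 to 0.10 were the MDA-MB-468 ranges. The difference of effects ranged from -0.85 to 0.57 for FOSL1 and -0.72 to 0.0295 for BATF3, and that of controls from -0.13 to 1.3 for FOS, -0.157 to 0.178 for JUNB and -0.17 to 0.57 for BATF3. The causes were not tested.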
